A study of Mus musculus with 12 samples.

Results

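10 genes for transcription factors of the myeloid lineage were described in sorted mouse microglia: Spi1, Irf8, Irf5, Runx1, Cebpa, Cebpb, Ikzf1, Etv5, Fli1 and Elf1. Every peak that the deposited tables list under 1 of these gene names was taken, in chromatin immunoprecipitation with sequencing (ChIP-seq) for Rpb2, a subunit of RNA polymerase II, and for H3K27ac, histone H3 acetylated at lysine 27. All 10 genes had peaks for both marks, of 9613 genes that did. They held 130 of 26706 Rpb2 peaks and 140 of 55862 H3K27ac peaks. The study compared wild-type mice (WT, Cx3cr1 +/+) with littermates in which both copies of Cx3cr1, the receptor for the chemokine fractalkine, are disrupted by the gene for eGFP (KO, Cx3cr1 eGFP/eGFP), all on the C57BL/6J background and 2 months old. Microglia were sorted as CD11b+ CD45lo cells, so cells of other types within that gate were not removed. Each library was made from a pool of 3 mice, and each genotype and mark has 1 female-labelled and 1 male-labelled pool, so every comparison sets 2 pools against 2. Cx3cr1 is disrupted in every cell of the KO mice, and the cells that use its promoter make eGFP instead. Values below follow the order WT female-labelled, WT male-labelled, KO female-labelled and KO male-labelled.

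These factors set up and maintain the macrophage program to which microglia belong. Spi1 encodes PU.1, the ETS-family factor that opens enhancers in myeloid cells. Irf8 and Irf5 are interferon regulatory factors, and IRF8 pairs with PU.1 at shared sites. Runx1 is needed for blood stem cells to form, and the C/EBP factors Cebpa and Cebpb drive granulocyte and macrophage genes. Ikzf1 encodes Ikaros, a zinc finger factor of blood cells, and Etv5, Fli1 and Elf1 are further members of the ETS family. Rpb2 reads pile up where polymerase pauses just after the transcription start site (TSS) and spread thinly over the gene body, whereas H3K27ac marks active promoters and enhancers.

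The member promoter peaks with the lowest p for Rpb2 between genotypes were those of Irf8, Cebpa, Cebpb and Etv5. Their RefSeq sequences (assembly GRCm38.p6, 250 bases before to 50 after the start) are given 5′ to 3′ on the strand of the gene. These promoters were picked for that difference, and no link between sequence and Rpb2 was tested. Capitals mark the TATA box TATAAA and the CCAAT box CCAAT on either strand, and the C/EBP site TTGCNNAA had no match. Irf8 lies at chr8:120736108-120736407 on the plus strand, Cebpa at chr7:35119043-35119342 on the plus strand, Cebpb at chr2:167688665-167688964 on the plus strand and Etv5 at chr16:22439521-22439820 on the minus strand.
Irf8: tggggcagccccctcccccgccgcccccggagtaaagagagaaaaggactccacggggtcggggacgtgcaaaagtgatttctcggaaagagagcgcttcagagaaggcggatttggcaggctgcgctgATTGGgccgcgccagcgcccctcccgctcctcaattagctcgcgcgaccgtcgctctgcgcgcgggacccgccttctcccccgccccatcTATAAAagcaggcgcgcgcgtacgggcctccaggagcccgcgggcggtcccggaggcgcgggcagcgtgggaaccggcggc
Cebpa: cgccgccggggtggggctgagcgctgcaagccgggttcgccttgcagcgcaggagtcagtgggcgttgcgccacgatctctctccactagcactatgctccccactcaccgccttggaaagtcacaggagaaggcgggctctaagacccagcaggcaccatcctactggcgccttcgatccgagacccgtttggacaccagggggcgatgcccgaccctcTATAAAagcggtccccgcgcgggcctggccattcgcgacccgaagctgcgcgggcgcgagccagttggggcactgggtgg
Cebpb: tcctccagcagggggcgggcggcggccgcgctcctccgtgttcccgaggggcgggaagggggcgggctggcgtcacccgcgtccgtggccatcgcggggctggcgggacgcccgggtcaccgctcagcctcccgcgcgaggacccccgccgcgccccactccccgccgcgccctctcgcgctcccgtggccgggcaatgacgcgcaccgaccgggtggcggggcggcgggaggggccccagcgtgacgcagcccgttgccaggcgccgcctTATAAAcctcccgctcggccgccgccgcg
Etv5: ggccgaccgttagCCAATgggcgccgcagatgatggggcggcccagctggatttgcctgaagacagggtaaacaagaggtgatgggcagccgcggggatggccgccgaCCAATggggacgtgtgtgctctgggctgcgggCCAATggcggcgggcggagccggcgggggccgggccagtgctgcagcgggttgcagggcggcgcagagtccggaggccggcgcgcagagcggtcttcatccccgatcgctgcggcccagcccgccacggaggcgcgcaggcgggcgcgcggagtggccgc

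Irf8 held a TATAAA whose first base lies 31 bases before the start, and Cebpa one 30 bases before it. Of 13 promoter entries for 8 of the 10 genes, these were the 2 with a sense-strand TATAAA between 40 and 15 bases before the start, against 1.99% of 32851 mouse promoters. Anywhere in the window and on either strand, TATAAA was found in 5 of 13 entries and in 13.6% of all promoters, and CCAAT in 6 of 13 and 37.4%. In Cebpb the TATAAA lay 21 bases after the annotated start, and Etv5 held CCAAT 3 times and no TATAAA. The ETS core GGAAGT was found in 3 of the 13 entries and in 23.8% of all promoters, and the RUNX site TGTGGT in 1 and in 16.8%. The PU.1-type site GAGGAAGT and the IRF repeat GAAANNGAAA were found in none of the 13, against 3.2% and 3.44% of all promoters. Spi1 and Fli1 were not among the matched entries.

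Rpb2 libraries held 11662185 to 44332626 reads, of which 11.2% to 15.1% fell in peaks, and the deepest was the KO female-labelled library. H3K27ac libraries held 10395804 to 21134403 reads, with 61.1% to 65.3% in peaks except in the WT female-labelled library, where the share was 15.9%. The library labelled WT female for Rpb2 carried 136 reads in peaks of Y-linked genes, against 0 in the KO female-labelled one, so it goes against its sex label. The 8 microglial markers checked had peaks in both tables. The defining markers of monocytes, neutrophils, lymphocytes, astrocytes and neurons had no Rpb2 peak. Of the 4 oligodendrocyte markers 1 had an Rpb2 peak, at summed levels of 158, 103, 152 and 117 CPM (reads scaled to a common number of reads in peaks), and 2 of 3 endothelial markers had one, at 50.9 to 86.2 CPM. Their part in the results was not tested. For H3K27ac 2 or 3 markers of each of these other types had a peak, with the highest summed level, 363 CPM, for oligodendrocytes, against 4213 to 7386 CPM for microglia. At Cx3cr1 itself the promoter Rpb2 peak held 369, 462, 1442 and 623 reads (log2 fold change KO over WT -0.23, SE 0.19, edgeR adjusted p = 0.65). That peak lies outside the disrupted part, so it checks no label.

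Read counts were scaled to CPM with trimmed-mean factors, and differences were tested with the quasi-likelihood test of edgeR over all peaks of a mark. By this test no member peak passed an adjusted p of 0.05 for Rpb2 (0 of 130, lowest adjusted p = 0.198), against 0.00749% of all Rpb2 peaks. At an unadjusted p under 0.05, 12 of the 130 were higher in KO (all peaks 6.12%) and 12 were lower (all peaks 6.06%). Both member shares were 9.23%. The fits differed in how many peaks they called: DESeq2 called 9 of the 130 (3.83% of all peaks), the likelihood ratio test of edgeR 8 (3.46%), the newer quasi-likelihood method of edgeR 6 (1.02%) and limma voom with quality weights 3 (0.352%). All 3 peaks that limma called were promoter peaks found in both genotypes, at Irf8, Cebpa and Etv5, and all were lower in KO. Of all peaks at an unadjusted p under 0.05, 50.2% were higher in KO, a share that was 84.4% when library totals set the scale and 28.9% with loess offsets. In pooled cells, fewer cells with polymerase at a site and less polymerase per cell cannot be told apart.

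Irf8 had the strongest promoter peak by density after Cebpa, at 978 CPM per kb, above 99.4% of all Rpb2 peaks. The peak at chr8:120736284-120736572, centred 70 bp after the start, held 449, 620, 1114 and 429 reads, which is 349, 408, 203 and 167 CPM. Each KO pool was below either WT pool. WT averaged 379 ± 41.8 CPM and KO 185 ± 24.9 CPM (SD over the 2 pools). The fitted log2 fold change was -1.03 with an SE of 0.20 and a 95% interval of -1.46 to -0.60 (edgeR adjusted p = 0.198). Each of the 4 other tests placed it past the threshold, with adjusted p = 1.63e-05 by DESeq2, 0.008 by the likelihood ratio test, 0.00506 by the newer quasi-likelihood method and 0.00216 by limma. Without the library at odds with its sex label, which leaves 1 WT pool, the log2 fold change was -1.15.

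Cebpa, a factor of granulocyte and monocyte progenitors, gave nearly the same picture. Its promoter peak at chr7:35119203-35119436 held 324, 525, 837 and 420 reads, or 252, 346, 152 and 164 CPM, and its density was 980 CPM per kb. The genotypes stood apart, and KO was lower by a log2 fold change of -0.92 (SE 0.22, 95% interval -1.40 to -0.45, edgeR adjusted p = 0.198). The 4 other tests called it, at adjusted p = 0.0023 by DESeq2, 0.0343 by the likelihood ratio test, 0.0241 by the newer quasi-likelihood method and 0.0117 by limma.

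Cebpb, the C/EBP factor induced in inflammation, had little Rpb2 and its call differed between peaks. The peak 99 bp after its start, in the WT peak list only, held 40, 61, 45 and 22 reads (31.1, 40.2, 8.18 and 8.58 CPM), a log2 fold change of -2.09 (SE 0.58, edgeR adjusted p = 0.209). DESeq2 and the likelihood ratio test called it at adjusted p = 0.00621 and 0.0226, and the newer quasi-likelihood method and limma did not. The peak 850 bp after the start, in the KO list only, held 47, 20, 164 and 55 reads and its groups overlapped (log2 fold change 0.06, adjusted p = 0.977). Because peaks in 1 list only were chosen on these same reads, their differences are in part fixed by that choice.

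Etv5, an ETS factor expressed in several tissues, had its largest difference at the promoter as well. The peak 38 bp after the start held 133, 257, 200 and 212 reads, or 103, 169, 36.4 and 82.7 CPM. Again each KO pool was below either WT pool, with a log2 fold change of -1.22 (SE 0.39, 95% interval -2.06 to -0.37, edgeR adjusted p = 0.257). The size turned on single pools, at -0.72 without the KO female-labelled library, -1.91 without the KO male-labelled one and -0.81 without the WT male-labelled one. The newer quasi-likelihood method and limma called it at adjusted p = 0.0438 and 0.0214, and DESeq2 and the likelihood ratio test did not. A second peak 521 bp upstream held 42, 63, 230 and 144 reads, with both KO pools above both WT pools and an adjusted p of 0.721.

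**Figure D1:**
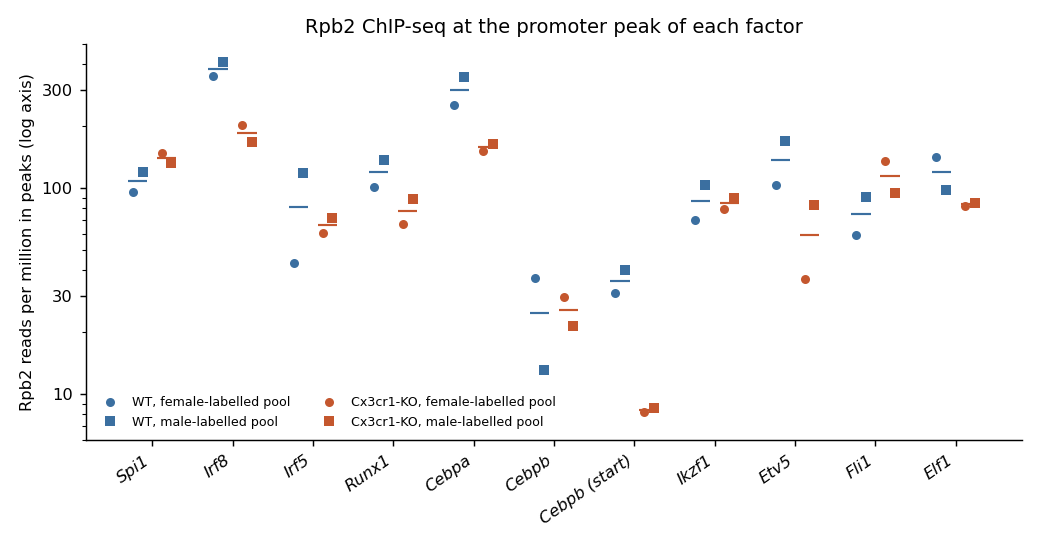
Rpb2 level in CPM (log axis) at the strongest promoter peak of each of the 10 genes and, as a second entry, at the Cebpb peak nearest its start, with 1 point per pool (circles female-labelled, squares male-labelled) and a bar for the mean of each genotype. At Irf8, Runx1, Cebpa, Etv5, Elf1 and the Cebpb peak at the start both KO pools lie below both WT pools, at Spi1 and Fli1 both lie above, and at Irf5, Ikzf1 and the stronger Cebpb peak the groups overlap.

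The promoters of Spi1 and Fli1 had the opposite order of pools. That order was found at 1557 of all 10125 Rpb2 peaks within 1000 bp of a start. At Spi1 the promoter peak held 123, 182, 814 and 339 reads (95.6, 119.8, 148 and 132 CPM), so both KO pools lay above both WT pools (log2 fold change 0.38, SE 0.25, edgeR adjusted p = 0.567). At Fli1, an ETS factor of blood and endothelium, the peak 93 bp after the start held 76, 137, 744 and 242 reads (59.1, 90.2, 135 and 94.4 CPM), with the same order (log2 fold change 0.62, SE 0.31, adjusted p = 0.446). Neither passed the threshold in any of the 5 tests. The log2 ratio of the Fli1 peak was 1.18 in the female-labelled pair and 0.07 in the male-labelled one.

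Runx1 has a pair of promoters. At the downstream one the peak 136 bp before the start held 131, 208, 367 and 228 reads, or 102, 137, 66.7 and 88.9 CPM (log2 fold change -0.62, SE 0.29, edgeR adjusted p = 0.413), with both KO pools below both WT pools. At the upstream one, 75 bp after the start, 61, 165, 401 and 219 reads gave overlapping groups. Elf1 likewise held a peak at each of its annotated starts: 182, 149, 453 and 218 reads at the stronger (log2 fold change -0.52, SE 0.28, adjusted p = 0.483), where KO lay below WT, and 86, 156, 413 and 260 reads at the other, where the groups overlapped.

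Irf5, which acts downstream of Toll-like receptors, carried 4 Rpb2 peaks within 1000 bp of a start. The strongest, 186 bp after its start, held 56, 179, 332 and 184 reads (43.5, 118, 60.4 and 71.8 CPM), and the groups overlapped (log2 fold change -0.30, SE 0.41, edgeR adjusted p = 0.799). The peaks at 46 bp after and 723 bp before a second start, both in the KO list only, held 73, 59, 508 and 187 reads and 37, 46, 246 and 184 reads, with adjusted p = 0.38 and 0.379. At the Ikzf1 promoter 90, 158, 436 and 229 reads gave 70.0, 104, 79.3 and 89.3 CPM, and the groups overlapped (log2 fold change -0.05, adjusted p = 0.963).

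Over all 22 member peaks within 1000 bp of a start, 4 were lower in KO at an unadjusted p under 0.05 (all such peaks 8.48%) and 2 were higher (2.36%). Neither KO pool reached the lower WT pool at 8 of the 22, against 27.1% of all peaks there. The median log2 fold change of the 22 was -0.04, and of all 10125 such peaks -0.11. For the 14 of them in both peak lists the median was -0.07, with 3 lower and 0 higher at an unadjusted p under 0.05. Those 3 were the promoter peaks of Irf8, Cebpa and Etv5. Of all 5609 such peaks in both lists, 10.1% were lower and 0.767% higher, with a median of -0.18.

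The member peaks were spread deeper into their genes than Rpb2 peaks in general. Introns held 59.2% of the 130, against 36.6% of all Rpb2 peaks, and the promoter class of the annotation held 11.5% against 28.6%. Ikzf1 had 29 peaks, Irf5 and Runx1 20 each, Irf8 19, Spi1 15 and Fli1 14, while Elf1 had 5, Etv5 and Cebpa 3 each and Cebpb 2. Of the 130, 32 were in both peak lists, 22 in the WT list only and 76 in the KO list only. The KO-only share was 58.5%, against 53.0% of all peaks, beside a KO female-labelled library that was the deepest of the 4. The median log2 fold change was -0.12 for peaks in both lists (all peaks -0.17), -0.87 for WT-only peaks (-0.89) and 0.67 for KO-only peaks (0.51). All 12 peaks higher at an unadjusted p under 0.05 were in the KO list only, and 9 of the 12 lower ones were in the WT list only, so those counts follow the lists that chose the peaks.

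**Figure D2:**
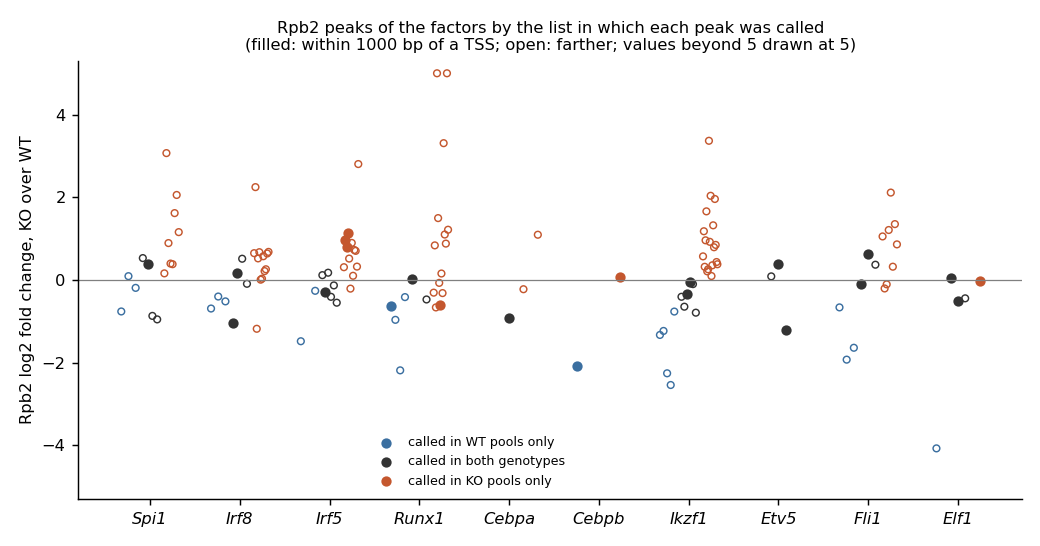
Log2 fold change KO over WT (vertical axis) of the 130 member Rpb2 peaks, by gene and coloured by the peak list in which each was found, with filled points within 1000 bp of a start, open points farther away and values beyond 5 drawn at 5. Peaks of the KO list only lie mostly above 0 and those of the WT list only mostly below it, with medians of 0.67 and -0.87.

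At Irf8 the reads near a start were lower in KO, and those farther along the gene were not. Of its 19 Rpb2 peaks, 12 were in the KO list only and 3 in the WT list only. Sums over them thus follow those lists in part. Its 2 peaks within 1000 bp of a start summed to 478, 669, 1323 and 488 reads (log2 ratio of mean CPM -0.91), and its 17 peaks farther away to 572, 614, 2705 and 1254 reads (0.21). The share of Irf8 reads near a start was therefore 45.5% and 52.1% in WT and 32.8% and 28.0% in KO. Restricted to its peaks in both lists, the share was 82.1% in both WT pools and 67.9% and 69.8% in KO. A share within 1 library does not depend on how libraries are scaled, but reads of 1-list peaks enter the first of the 2 versions. 1 intronic peak 4207 bp after a start, in the KO list only and singled out after its values were seen, held 34, 6, 324 and 212 reads. It was called by the likelihood ratio test (adjusted p = 0.0164) and the newer quasi-likelihood method (adjusted p = 0.0319) but not by the other tests (0.215 by the quasi-likelihood test used throughout).

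**Figure D3:**
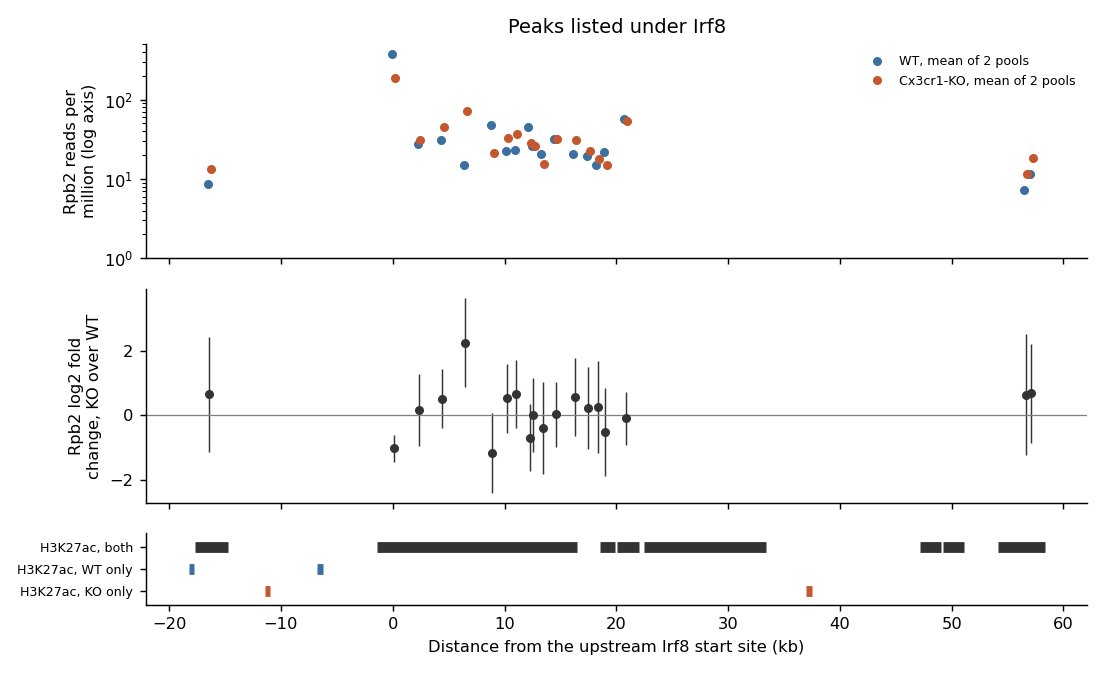
Peaks listed under Irf8 by distance from its upstream start in kb (horizontal axis), with the mean Rpb2 CPM of the 2 pools of WT and KO on a log axis (top), the Rpb2 log2 fold change KO over WT with its 95% interval (middle) and the extent of the H3K27ac peaks by peak list (bottom). The promoter peak stands at 379 CPM in WT and 185 in KO, and the Rpb2 peaks along the gene lie lower, several of them with KO above WT.

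The same share was computed for the 9 members with at least 50 reads in every library and peaks on both sides of the limit. In KO both shares were under both WT shares at 4 of the 9 (all 2895 such genes 33.2%), namely Irf8, Cebpa, Ikzf1 and Etv5, and above them at 1, Irf5 (13.7%). Etv5 had 77.4%, 67.2%, 52.8% and 62.8% of its reads near a start, and Cebpa 92.6%, 91.8%, 81.3% and 82.4%. The 2 Cebpa peaks farther away are in the KO list only, so its lower share is in part fixed by that choice. With peaks in both lists alone, KO lay below WT at 2 of 8 members, Irf8 and Etv5 (all 991 such genes 20.5%), and above at 2, Spi1 and Ikzf1 (18.6%). Spi1 then ran the opposite way to Irf8, with 38.4%, 49.7%, 60.9% and 51.6%. The median difference over all genes was -2.81 percentage points with all peaks and -0.08 with peaks in both lists. For Irf8 it was -18.4 and -13.2 points, at percentile 6.94 of the 2895 genes and 8.17 of the 991. Etv5 stood at -14.5 points in both versions, at percentiles 12.71 and 6.46.

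**Figure D4:**
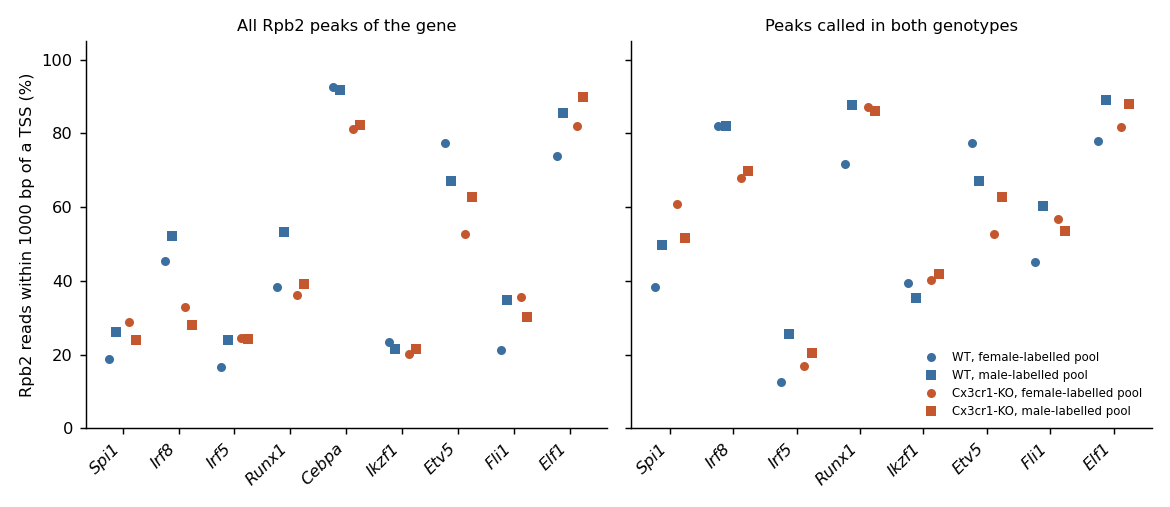
Share of the Rpb2 reads of a gene lying within 1000 bp of a start, in percent, over all its peaks (left) and over its peaks in both lists (right), with 1 point per pool in WT and KO. On the left Irf8 stands at 45.5% and 52.1% in WT and at 32.8% and 28.0% in KO, and on the right at 82.1% in both WT pools and at 67.9% and 69.8% in KO.

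Away from the promoters, the peaks with the lowest p at each other gene were also found in 1 list only. The higher ones were in the KO list and the lower ones in the WT list. Their directions, folds and calls are thus in part fixed by that choice. Runx1 carried a peak in its last intron, 90127 bp after a start, with 0, 0, 98 and 48 reads, at least 16.9-fold higher in KO against a floor of 3 reads over the WT libraries. Another, 49019 bp before a start, held 0, 0, 49 and 18 reads, at least 7.77-fold higher. The first was called by DESeq2, the likelihood ratio test and the newer quasi-likelihood method (adjusted p = 0.00409, 0.000272 and 0.0371), and its quasi-likelihood adjusted p was 0.198. The second was called by DESeq2 and the likelihood ratio test (adjusted p = 0.0377 and 0.00298). At Spi1 an intronic peak 7629 bp after the start held 8, 14, 139 and 102 reads (log2 fold change 2.06, SE 0.63, adjusted p = 0.241). Ikzf1 showed the same order 42790 bp after a start, with 9, 14, 134 and 101 reads (1.96, SE 0.62, adjusted p = 0.258). DESeq2 called both of these peaks, at adjusted p = 0.0313 for Spi1 and 0.0404 for Ikzf1, and the other tests did not.

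The others ran the opposite way. Upstream of Irf5, 3639 bp before a start, 77, 60, 98 and 45 reads gave a log2 fold change of -1.48 (SE 0.47, edgeR adjusted p = 0.257). In a Fli1 intron 65467 bp after the start the reads were 35, 61, 78 and 18 (-1.64, SE 0.60, adjusted p = 0.312). In the first intron of Elf1, 11525 bp after a start, they were 30, 21, 10 and 0 (-4.08, SE 1.16, adjusted p = 0.215). DESeq2 called the Irf5 peak (adjusted p = 0.023), and the Elf1 peak was called by DESeq2, the likelihood ratio test and the newer quasi-likelihood method (adjusted p = 0.0107, 0.00847 and 0.0276). In each of these 3 the higher KO pool was under the lower WT pool in CPM.

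The strongest Rpb2 peaks over 1000 bp from a start lay at the end of some genes and in the first intron of others. At Irf5 that peak, 10380 bp after a start, held 144, 206, 672 and 265 reads, and at Irf8, just past the end of the gene, 64, 98, 357 and 107. At Fli1 it lay 1118 bp after the start with 123, 116, 626 and 276 reads. Both KO pools lay above both WT pools at Fli1, and the groups overlapped at Irf5 and Irf8. Ikzf1 held 87, 149, 422 and 200 reads at 1583 bp and Etv5 51, 156, 384 and 211 reads at 5275 bp upstream. Elf1 held 76, 37, 194 and 65 reads at 19928 bp and Runx1 78, 38, 151 and 94 at its end. At all 4 the groups overlapped. Cebpa, with 11, 18, 135 and 49 reads 5623 bp after its start, had both KO pools above both WT pools (edgeR adjusted p = 0.52). That peak is in the KO list only, so its order is in part fixed by that choice.

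The strongest Rpb2 peak of Spi1 outside its promoter lay 12410 bp before the start, inside the broad acetylated domain described below, with 127, 132, 264 and 158 reads (98.7, 86.9, 48.0 and 61.6 CPM). It was in the WT list only. Its central 200 bases at chr2:91084169-91084368 (GRCm38.p6, plus strand) are shown because it is an upstream site of the gene for PU.1, beside those of the Runx1 peak at 90127 bp, chr16:92607103-92607302, which had no WT reads. Capitals mark the RUNX site TGTGGT on either strand, the other motifs named above having no match.
Spi1 upstream peak: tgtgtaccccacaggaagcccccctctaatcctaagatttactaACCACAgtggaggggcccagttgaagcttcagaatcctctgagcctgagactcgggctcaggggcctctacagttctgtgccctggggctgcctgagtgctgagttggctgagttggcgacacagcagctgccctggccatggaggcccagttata
Runx1 intronic peak: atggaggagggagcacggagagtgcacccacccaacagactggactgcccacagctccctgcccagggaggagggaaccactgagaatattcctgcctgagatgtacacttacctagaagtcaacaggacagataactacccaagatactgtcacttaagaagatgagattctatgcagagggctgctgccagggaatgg

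The Spi1 window held 1 RUNX match, on the minus strand, and the Runx1 window none. Among the 108 member peaks over 1000 bp from a start, TGTGGT was found in the central 200 bases of 24 (22.2%), against 16.3% of all such peaks, and GGAAGT in 15 (13.9%) against 21.9%.

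Summed over all peaks of a gene, Rpb2 placed Irf5 at rank 52, Irf8 at 80, Ikzf1 at 109 and Spi1 at 206 of 10206 genes, and Cebpb at 5818. By this sum no member passed an adjusted p of 0.05, and 0% of all genes did. At an unadjusted p under 0.05, 1 member was higher (all genes 5.55%) and 1 lower (5.24%). The higher one was Irf5, with 1127, 1255, 5171 and 2522 reads (log2 fold change 0.25, SE 0.105, adjusted p = 0.38). Of the 20 Irf5 peaks in that sum, 12 were in the KO list only and 2 in the WT list only. Across the settings that keep all pools, its log2 fold change ran from 0.02 to 0.60. The lower one was Cebpa, with 350, 572, 1030 and 510 reads (-0.68, SE 0.19, adjusted p = 0.177). Irf8 summed to 1050, 1283, 4028 and 1742 reads (-0.16, SE 0.11, adjusted p = 0.639), far less than at its promoter alone, and Spi1 to 656, 700, 2818 and 1413 (0.21, SE 0.14, adjusted p = 0.612). The other 6 ranged from -0.75 at Cebpb to 0.31 at Fli1. Both KO sums lay above both WT sums at Irf5, Spi1 and Fli1, and below both at Irf8, Cebpa and Cebpb. At the other members the groups overlapped. How many of all genes had such orders was not computed. Among all 26706 single Rpb2 peaks, both KO pools lay above at 6863 and below at 5806. Spi1 and Fli1 each had 8 peaks in the KO list only and 3 in the WT list only, and Irf8 had 12 and 3. With library totals as the scale the Irf8 sum turned to 0.09.

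H3K27ac at the same genes was broad. A single domain of 24.221 kb covered the start of Spi1, rank 50 in width among all H3K27ac peaks, reaching 18.617 kb upstream and 5.604 kb downstream and holding 13 of the 15 Spi1 Rpb2 peaks. It held 2062, 5427, 10222 and 9433 reads, or 583, 867, 777 and 757 CPM, with overlapping groups (log2 fold change 0.08, SE 0.38, 95% interval -0.67 to 0.83, edgeR adjusted p = 1). The domains over Irf5 and Irf8 were 17.99 and 17.916 kb wide and those over Ikzf1 and Etv5 12.361 and 10.664 kb.

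At Irf8, whose promoter Rpb2 peak was lower in KO, the acetylated domain held 1264, 2451, 5153 and 4872 reads, or 357, 392, 392 and 391 CPM. Its groups overlapped and the log2 fold change was 0.06 (SE 0.34, 95% interval -0.61 to 0.73). At Cebpa a 9.81-kb domain held 581, 901, 2063 and 2352 reads (0.17, SE 0.30, 95% interval -0.43 to 0.76). Etv5 held 605, 1882, 3499 and 3311 reads (0.17, SE 0.32). The intervals of the marks overlapped at Irf8 and Etv5, where the lower H3K27ac bounds were -0.61 and -0.46 and the upper Rpb2 bounds -0.60 and -0.37, and nearly met at Cebpa, at -0.43 and -0.45. The difference between the marks was not tested.

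Cebpb had only 2 small acetylated peaks listed under its own name, with 29, 0, 26 and 52 reads in all. The 6.456-kb domain that covers its start is listed under A530013C23Rik, and was looked at after its values were seen. It held 211, 445, 941 and 907 reads (59.6, 71.1, 71.5 and 72.8 CPM). 1 of the starts of Elf1 likewise lies in a domain listed under Wbp4. Fli1 carried, beside the 7.659-kb domain at its promoter, a 26176-bp domain in its first intron with 1230, 3332, 7077 and 6766 reads (log2 fold change 0.30, SE 0.36, edgeR adjusted p = 0.939). Runx1 had the most acetylated peaks, 50, spread over 80.7 kb in sum.

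None of the 140 H3K27ac peaks passed an adjusted p of 0.05 (lowest 0.811), against 0.0233% of all H3K27ac peaks. At an unadjusted p under 0.05, 1 was higher (all peaks 1.35%) and 3 lower (3.6%). The higher one was an intronic Fli1 peak 48148 bp after the start with 61, 166, 429 and 507 reads (log2 fold change 0.73, SE 0.33), and the Runx1 peak with the lowest p, 225373 bp before a start, held 30, 142, 96 and 70 reads (-1.28, SE 0.54). DESeq2 called 1 of the 140 (0.642% of all peaks), a Runx1 peak with 31, 19, 1 and 1 reads. Summed per gene, 0 of 10 members passed, with 0% of all genes, and none was past an unadjusted p of 0.05 in either direction (all genes 0.951% higher and 5.53% lower). 9 of the 10 sums had log2 fold changes between 0.07 and 0.28, and the median over all 140 peaks was -0.02, against -0.21 over all peaks. With loess offsets 6 of the 9 sums lay between -0.09 and -0.02 instead.

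**Figure D5:**
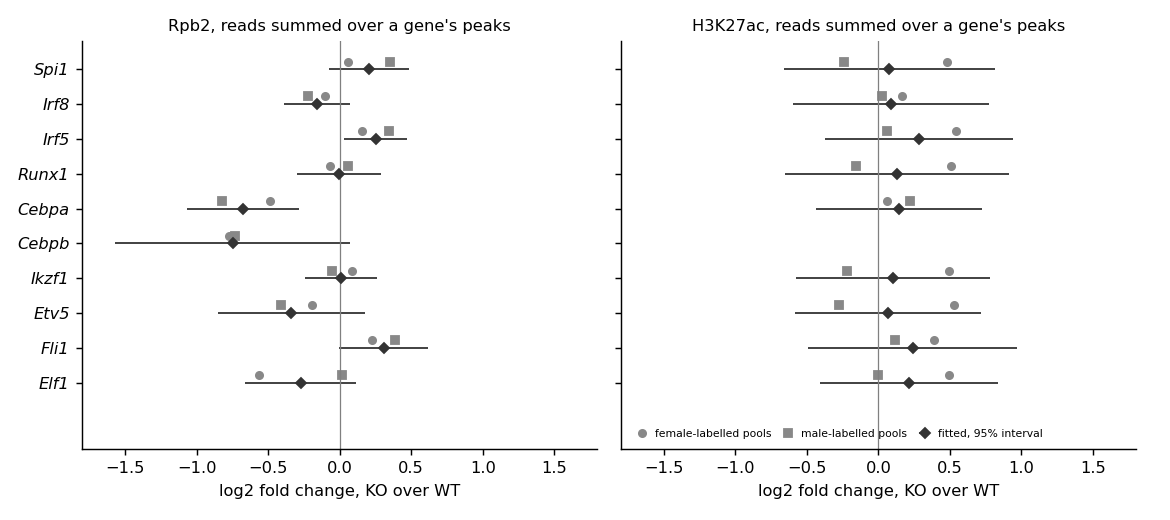
Log2 fold change KO over WT (horizontal axis) of the reads summed per gene for Rpb2 (left, 10 genes) and H3K27ac (right, 9 genes, without Cebpb), with the fitted value and its 95% interval (diamonds) and the ratios of the female-labelled and male-labelled pools (circles and squares). The Rpb2 intervals of Cebpa, at -0.68, and Irf5, at 0.25, leave out 0, and the H3K27ac intervals all include 0.

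The H3K27ac values turned on which WT pool was used. Without the WT female-labelled library, the one with 15.9% of its reads in peaks, 3 of 133 member peaks were called (1.53% of all), all at Runx1 and all lower in KO (0.809% of all peaks were called as lower). The sums of Spi1 (-0.23, adjusted p = 0.0263) and Runx1 (-0.18, adjusted p = 0.0479) were then called as lower, 2 of 10 against 2.01% of all genes called as lower. Without the WT male-labelled library, 15 of 139 member peaks were called (14.8% of all), 14 of them higher in KO (4.92% of all peaks were called as higher), and 8 of 10 sums were called as higher (10.7% of all genes), Spi1 among them at 0.47 and Runx1 at 0.53. The direction at Spi1 and Runx1 thus reversed with the pool left out. With 1 WT pool, that pool was assumed to vary as the KO pools do.

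For Rpb2 the count also grew when a WT pool was left out. Without the WT female-labelled library 17 of 130 member peaks were called (8.28% of all peaks), 9 higher and 8 lower, and without the WT male-labelled one 16 (7.35%), 11 higher and 5 lower. The promoter peak of Irf8, the intronic Runx1 peak at 90127 bp, the upstream Runx1 peak and the Elf1 peak at 11525 bp were called in both. Without either KO pool none was called. On summed Rpb2 reads, 1 member, Cebpa, was called without the WT female-labelled library (-0.90, adjusted p = 0.00528), against 1.11% of all genes called as lower.

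Most Rpb2 peaks of these genes lay within acetylated chromatin. Of the 130, 99 (76.2%) overlapped an H3K27ac peak, against 76.6% of all Rpb2 peaks. All 22 near a start did, against 98.2%, and 77 of the 108 farther away (71.3%), against 63.4%. By gene the share ran from 100% at Cebpa, Cebpb, Etv5 and Fli1 to 48.3% at Ikzf1, where 14 of 29 peaks overlapped one. A distal H3K27ac peak 53969 bp after the start of Irf8, 4128 bp wide, held 178, 380, 792 and 737 acetylated reads and 2 Rpb2 peaks in the KO list only, with 13, 7, 53 and 34 and with 9, 24, 128 and 34 reads.

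45 further genes of the same families, for ETS, IRF, RUNX, C/EBP, Ikaros and other blood factors, were read alongside. For Rpb2, 32 of the 45 had a peak and 0 passed an adjusted p of 0.05 (all genes 0%). The median log2 fold change was 0.09 (all genes 0.02). At an unadjusted p under 0.05, 2 of the 32 were higher (all genes 5.55%) and 0 lower (5.24%). The 2 were Runx3, which with its partner acts in lymphoid and some myeloid cells, with 2, 10, 147 and 60 reads (2.65, SE 0.78, edgeR adjusted p = 0.19), and the ETS factor Etv4, with 4, 5, 83 and 26 reads (2.04, SE 0.91, adjusted p = 0.417). Each rests on 1 peak of the KO list only. For H3K27ac, 39 of the 45 had a peak and 0 were past an unadjusted p of 0.05 in either direction (all genes 0.951% higher and 5.53% lower).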

How the data were processed

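Chromatin from sorted microglia was analysed in 8 ChIP-seq libraries, 4 for Rpb2 and 4 for H3K27ac (4 of 12 samples, the inputs, were not used). The authors mapped 51-nt reads to mm10 with Bowtie 2 and called peaks with HOMER. A reproducibility filter between replicate pools was applied, the lists of the genotypes were joined, and the authors deposited raw counts for each joined peak. Of the 81 member H3K27ac peaks in 1 list only, 21 held no read in 1 of the pools of the genotype that lists them (0 of 98 for Rpb2), so listing does not mean reads in both pools. Tool versions were not given in the sources used here. Groups came from the sample titles, and 0 columns of sample values were left out.

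Counts were scaled with TMM factors and tested with the edgeR 4.0.16 quasi-likelihood test (R 4.3.3) on all peaks that averaged 4 reads or more in either genotype, 26706 for Rpb2 and 55798 for H3K27ac, and on counts summed per gene. p-values were adjusted by Benjamini-Hochberg over all peaks or genes, with a threshold of 0.05. The study used DESeq2 on peaks within 1000 bp of a TSS; DESeq2 1.42.0, limma 3.58.1, other scalings, filters and left-out pools were alternatives. Each gene was described by its strongest promoter and distal peaks, its peak of lowest p if under 0.05, and its sum. The edgeR quasi-likelihood test on single peaks was tried on simulated counts for each mark. The other tests, scalings, sums per gene and left-out pools were not simulated. Changed peaks were drawn from those with many reads, and 56% (Rpb2) and 14% (H3K27ac) of 2-fold changes were recovered. For 4-fold changes the shares were 100% and 96%. The real peaks had common dispersions of 0.133 and 1.28, larger than those simulated. Recovery at the real spread was thus not measured. Pools with the same sex label did not deviate together (correlations of -0.01 for Rpb2 and 0.0043 for H3K27ac), so labels were not used as pairs.

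Members and lists were chosen with earlier results of these data known. Floors cover counting error only. Coordinates are those of the deposited tables. Motifs and sequences are from RefSeq and GRCm38.p6, the assembly of mm10. A peak is listed under the gene of its nearest start.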

Additional observations from a re-analysis of the deposited data

Results flagged for a closer look

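The female-labelled and male-labelled pairs of pools moved in opposite directions at 31 values, 8 of 20 sums per gene and 23 of 50 peaks. The 50 are the Rpb2 peaks within 1000 bp of a start and the strongest or lowest-p peaks of each gene for either mark. Low H3K27ac peaks were left out. These were the Cebpb peak nearest its start (2.14 CPM), the Elf1 peak nearest a start (0.83) and the strongest distal Irf5 peak (9.44). None of these differences between sexes was tested, each rests on 1 pool per group, and the library labelled WT female for Rpb2 is at odds with its label. On summed Rpb2 reads, the log2 ratio KO over WT in the female-labelled and male-labelled pairs was -0.07 and 0.06 at Runx1, 0.09 and -0.06 at Ikzf1, and -0.56 and 0.02 at Elf1.

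At Rpb2 peaks near a start it was -0.29 and 0.67 at the Cebpb peak at 850 bp, 0.18 and -0.22 at Ikzf1, 0.46 and -0.71 at the strongest Irf5 peak, and 0.61 and -0.34 at the upstream promoter of Runx1. The weaker Irf8 peak near a start gave 0.73 and -0.47, the Fli1 peak 894 bp upstream -0.49 and 0.17, and the Elf1 peaks 2 bp before and 740 bp after a start 0.17 and -0.02 and -1.14 and 0.61. At the strongest distal Rpb2 peaks it was -0.73 and 0.06 at Elf1, 0.80 and -0.32 at Etv5, 0.18 and -0.33 at Ikzf1, 0.13 and -0.39 at Irf5, 0.38 and -0.62 at Irf8, and -1.12 and 0.54 at Runx1.

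On summed H3K27ac reads it was 0.48 and -0.24 at Spi1, 0.51 and -0.16 at Runx1, and 0.49 and -0.22 at Ikzf1. At Etv5 it was 0.53 and -0.27, and at Elf1 0.50 and -0.01. In all 5 the female-labelled pair was the higher, and its WT library is the one with 15.9% of its reads in peaks, a value whose part in these ratios was not tested. At H3K27ac peaks over or near a start it was 0.42 and -0.20 at Spi1, 0.13 and -0.0023 at Irf8, 0.38 and -0.0012 at Runx1, 0.30 and -0.02 at Ikzf1, 0.64 and -0.18 at Etv5 and 0.48 and -0.20 at Elf1. At the strongest distal Ikzf1 peak, 16405 bp upstream, it was 1.04 and -0.23. The male-labelled pair was the higher at Cebpa, with -0.07 and 0.39, and at Fli1, with -0.0038 and 0.23.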

How the results depend on the processing

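In all, 57 values were recomputed under 989 alternatives, and 849 of these kept their direction and side of the threshold or moved by less than the spread. Another 56 reversed, none of them for a value past the threshold in the main fit. As the main fit called no member peak or sum, that was fixed in advance. The count of member peaks called for Rpb2, 0, was 9 with DESeq2, 8 with the likelihood ratio test, 6 with the newer quasi-likelihood method and 3 with limma voom, and 0 to 17 with 1 pool left out. The count of genes called on summed Rpb2 reads was 0 to 1 with 1 pool left out. For H3K27ac DESeq2 called 1 member peak, and with 1 pool left out 0 to 15 peaks and 0 to 8 genes were called. With the sex label as a replicate block, 0 member peaks and 0 member genes were called for either mark, so the block changed no call. The cause of these differences between settings was not tested.

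The Irf8 promoter Rpb2 peak kept its direction throughout, from -0.72 with library totals to -1.05, and from -1.18 to -0.90 with 1 pool left out. Library totals moved the median log2 fold change of all Rpb2 peaks from 0.04 to 0.37 and of all H3K27ac peaks from -0.21 to 0.53, and those of the members to 0.51 and 0.67.

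Reversals were near 0 in most cases. With library totals the Rpb2 sums became 0.092 at Irf8 and 0.27 at Runx1, the promoter peaks 0.29 at Ikzf1 and 0.042 at Irf5, and the H3K27ac sum of Cx3cr1 0.090. The Ikzf1 Rpb2 sum became -0.0042 with reads in peaks, -0.0090 with median-of-ratios factors, -0.01 with DESeq2, -0.0092 with limma, -0.065 with loess offsets, -0.031 with peaks near a start and -0.12 with peaks in both lists. Its promoter peak became 0.010 with reads in peaks, 0.084 with loess offsets, 0.082 with at least 10 reads in every library, 0.077 with peaks near a start and 0.12 with peaks in both lists. The Runx1 Rpb2 sum became 0.020 with at least 10 reads and 0.14 with peaks in both lists, and the Etv5 H3K27ac sum -0.0003 with the newer quasi-likelihood method. With loess offsets the H3K27ac sums became -0.067 at Spi1, -0.091 at Irf8, -0.022 at Runx1, -0.018 at Cebpa, -0.030 at Ikzf1 and -0.035 at Etv5, and the domains over or nearest to a start -0.16 at Spi1, -0.19 at Irf8, -0.023 at Runx1, -0.060 at Cebpa, -0.084 at Ikzf1, -0.057 at Elf1 and -0.14 at Fli1.

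With 1 pool left out the Rpb2 sums ran from -0.13 to 0.11 at Runx1, -0.12 to 0.12 at Ikzf1 and -0.71 to 0.13 at Etv5, and the promoter peaks from -0.50 to 0.95 at Cebpb, -0.32 to 0.27 at Ikzf1 and -0.85 to 0.60 at Irf5. The H3K27ac sums ran from -0.23 to 0.47 at Spi1, -0.053 to 0.25 at Irf8, -0.18 to 0.53 at Runx1, -0.19 to 0.47 at Ikzf1, -0.28 to 0.54 at Etv5, -0.058 to 0.55 at Elf1 and -0.77 to 0.010 at Cx3cr1. The H3K27ac domains ran from -0.18 to 0.40 at Spi1, -0.0081 to 0.13 at Irf8, -0.18 to 0.64 at Etv5, -0.20 to 0.48 at Elf1, -0.0034 to 0.22 at Fli1 and -0.18 to 0.98 at Ikzf1. The 2 pools a genotype, the depth of the KO female-labelled Rpb2 library and the low share of reads in peaks of the WT female-labelled H3K27ac library limit all of these values.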
